A study of Mus musculus with 25 samples.

Results

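MYC, the transcription factor encoded by Myc, and 45 genes of the nucleolus and of ribosome assembly were followed across 25 bulk RNA-seq libraries of mouse haematopoietic stem cells (HSCs). The 46 genes came from a list of MYC-driven nucleolar and assembly genes. All 46 were found by symbol among the 13641 genes of the deposited table and all passed the filter on low counts. Each mouse had been engrafted with marrow from a donor of 1 of 4 genotypes, tamoxifen was started 16 weeks after engraftment, and marrow was taken 2 or 4 weeks later for sorting of long-term HSCs, gated as Lin−Sca1+cKit+CD48−CD150+.

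All donors carried the tamoxifen-inducible SclCre, which is active in stem and progenitor cells, and a GFP reporter. Control donors had the genotype SclCre;GFP (WT, 4 libraries, 2 weeks only). The other 3 genotypes added the JAK2 V617F construct, an activating mutation of the kinase behind the thrombopoietin and erythropoietin receptors. These were SclCre;V617F;GFP (VF), the same with IL-1b-/- (Il1b KO) and the same with IL-1R1-/- (Il1r1 KO), with 4 libraries each at 2 weeks and 3 each at 4 weeks. Il1b encodes interleukin-1 beta and Il1r1 its signalling receptor, and each knockout was carried by the donor cells, while the labels do not give the genotype of the hosts. The study asked how interleukin-1 beta bears on the early expansion of JAK2-mutant stem cells. Samples of 2 and 4 weeks were processed in separate batches, so the weeks since tamoxifen and the batch cannot be told apart.

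Library totals ran from 21990959 to 40178173 counts, and 11871 to 13491 genes had reads. The library with the most counts and fewest genes, Il1b KO at 4 weeks number 5, stood apart from the others. Values without it, VF at 4 weeks number 6 and Il1r1 KO at 4 weeks number 5 are given where they matter, as those without the 3 libraries that stand apart. Values below are CPM, counts scaled to library size with TMM factors, unless said otherwise. A gene was called where its Benjamini-Hochberg adjusted p over the 13630 genes tested was under 0.05. The 12 stem cell markers examined, among them Procr, Slamf1 and Mecom, had reads in all 25 libraries. Camp and Ly6g of the 14 neutrophil and monocyte markers, Cd79a and Pax5 of the B lineage, Cd3e and Cd3d of T cells, and Cdh5 and Col1a1 of stroma and endothelium were not among the genes analysed here. Other genes of these lists had reads in all 25 libraries, such as Lyz2 (306 to 558 CPM) and Prtn3 (76.0 to 328 CPM). So had Cd79b (17.4 to 52.4 CPM) and Nkg7 (5.57 to 119 CPM), while Elane and Mpo had reads in 20 and 19.

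A ribosome begins in the nucleolus, where RNA polymerase I transcribes ribosomal DNA into one long precursor. Small nucleolar RNA-protein particles of the box C/D and box H/ACA kinds guide methylation and pseudouridylation of this RNA, and assembly factors fold, cut and export the small and large subunits. MYC binds E-box elements in many of the genes of this chain and raises their transcription, and in HSCs low MYC activity and low protein synthesis go with quiescence.

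In these libraries Myc had the highest level of the 46 per length of summed exons, at a mean of 191 RPKM (CPM per kilobase of these exons). Npm1 (nucleophosmin, an assembly and export chaperone; 176 RPKM), Nhp2 (a core protein of box H/ACA particles; 125) and Ncl (nucleolin, a ribosomal RNA-binding protein; 119.7) followed. The median of the 46 mean levels was 32.0 RPKM against 8.26 RPKM for all genes, and 43 of the 46 lay above the median of all genes. Counting could divide the reads of Npm1 and Fbl, which have processed copies elsewhere, so their levels are uncertain. Summed exons hold every annotated exon of a gene and can be longer than its transcript, so the order by RPKM is uncertain. In CPM, Ncl (10188 bases) ran from 911 to 1541 and Myc (2717 bases) from 254 to 623.

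Within each role the range was wide. For RNA polymerase I, Mybbp1a, a nucleolar protein that binds the polymerase, was highest (64.6 RPKM) and Polr1a, the largest subunit, lowest (5.13 RPKM). Of the box C/D proteins, Nop56 of the particle core stood at 97.6 RPKM and the methyltransferase Fbl at 8.64 RPKM. The H/ACA proteins spanned 59.6 RPKM (Gar1) to 125 RPKM (Nhp2), and the nucleolar phosphoproteins 50.9 RPKM (Nolc1) to 176 RPKM (Npm1). Small subunit factors ran from Utp20 (4.62 RPKM), a large scaffold, to Rcl1 (61.5 RPKM), and large subunit factors from Noc3l (10.2 RPKM) to Noc2l (86.7 RPKM). Polr1a and Utp20 had long summed exons (11871 and 10199 bases), over which these values are spread. Wdr12 (11955 bases) and Nop58 (10758 bases) had long summed exons as well.

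Replicates of a group differed less for these genes than for most. The SD of log2 CPM within groups had a median of 0.205 over the 46 and of 0.315 over all genes, and 41 of the 46 lay below the latter. As 43 of the 46 also lay above the median level of all genes, and genes of like level were not compared, this need not be particular to the set. Nob1, the nuclease that makes the mature end of 18S ribosomal RNA, varied least at 0.0966. Rrp12, a subunit export factor, varied most at 1.51. Rrp12 ran from 0.100 CPM in Il1b KO at 4 weeks number 5 to 49.8 CPM in Il1r1 KO at 4 weeks number 7, and the other Il1b KO libraries of 4 weeks stood at 35.0 and 28.8 CPM. Rrn3, the factor that makes RNA polymerase I competent to start, was also lowest in Il1b KO at 4 weeks number 5, at 15.7 CPM, and all other libraries lay between 46.1 and 106 CPM. Mrto4, a large subunit factor, was lowest there too, at 24.5 CPM, and highest in Il1r1 KO at 4 weeks number 5, at 104 CPM.

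**Figure D1:**
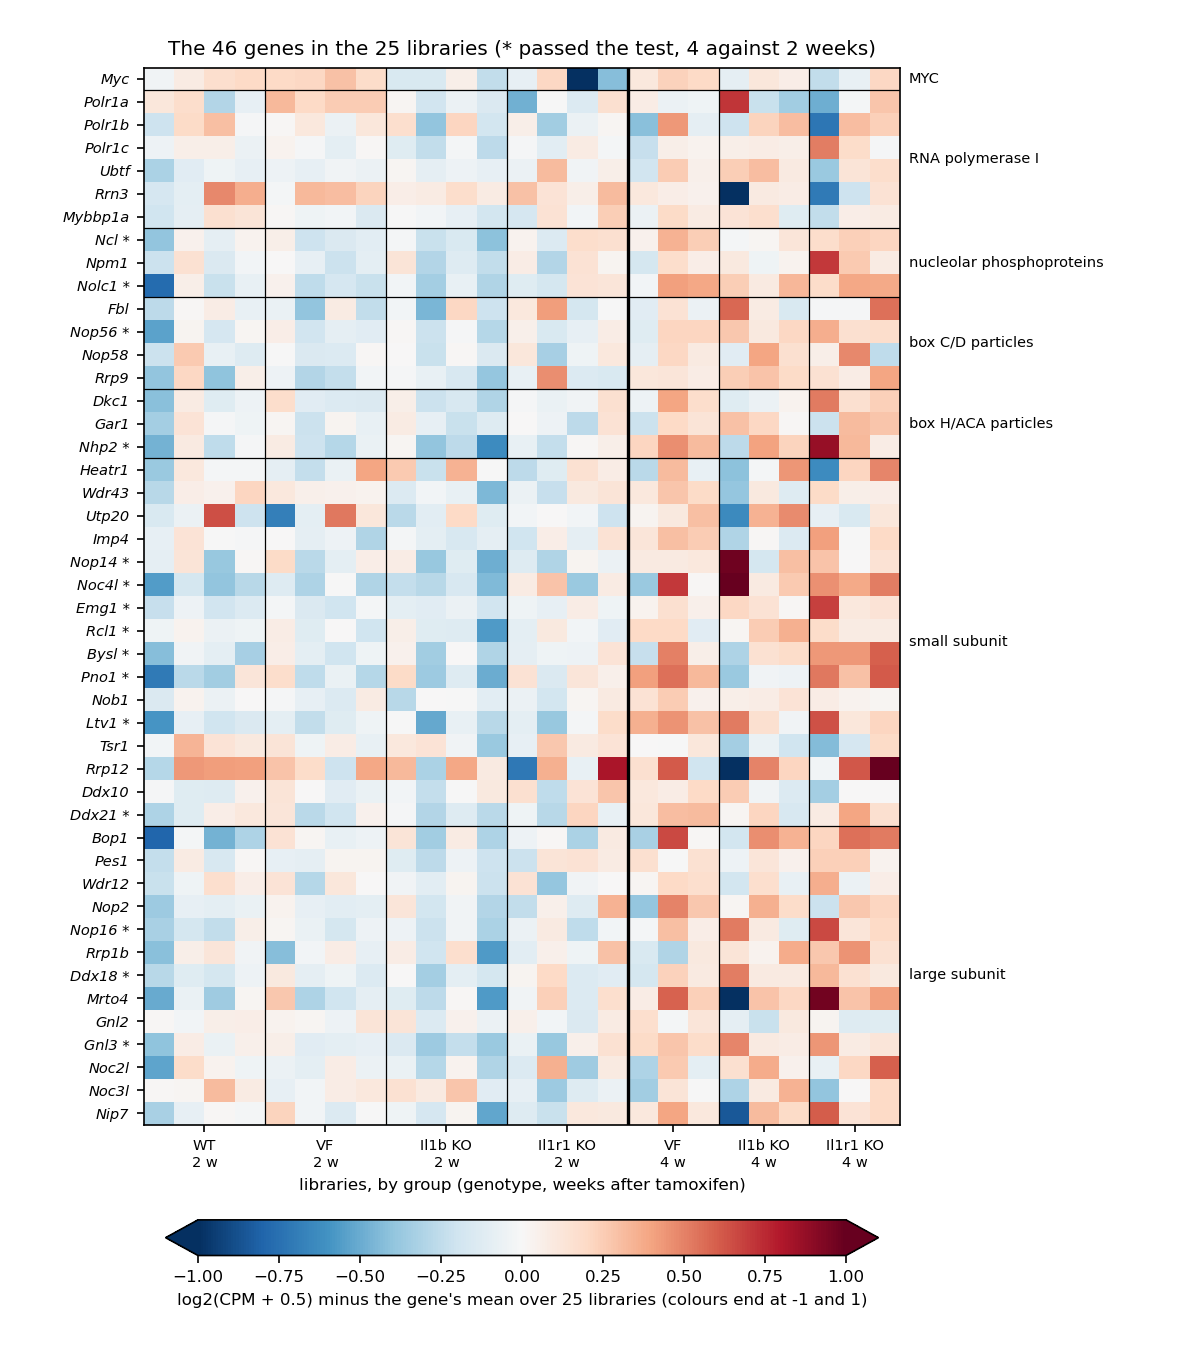
Deviation of each of the 46 genes (rows, by role) from its own mean over the 25 libraries (columns, by group), as log2(CPM + 0.5), with the thick line between 2 and 4 weeks. Red cells gather to the right of that line, and Rrp12, Rrn3 and Mrto4 are dark blue in the first Il1b KO library of 4 weeks, with Rrp12 at 0.100 CPM there.

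The palindrome CACGTG, the canonical E-box bound by MYC with its partner MAX, was searched in RefSeq promoters (GRCm38.p6; 250 bases before to 50 after each start). Promoters were at hand for 40 of the 46 genes. The letters occurred in 10 of the 40 (25.0%), against 11.6% of the 10504 tested genes with a promoter and 7.15% of all 32851 promoters. A match in this window is a description and not a site of binding. The sequences are the matches of Ltv1 and Pno1, the 2 of the 15 genes called at 4 against 2 weeks that held one, and of Rrn3 and Tsr1, which held one and were not called. Capitals mark CACGTG, the sequences run 5′ to 3′ along the gene, and positions count from 0 at the first transcribed base.
Ltv1: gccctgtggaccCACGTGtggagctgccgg
Pno1: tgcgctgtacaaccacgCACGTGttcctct
Rrn3: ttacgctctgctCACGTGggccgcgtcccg
Tsr1: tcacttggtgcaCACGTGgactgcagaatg
The Ltv1 match lies 28 bases after the start (chr10:13193092-13193121, minus strand) and that of Pno1 37 bases after it (chr11:17211540-17211569, minus strand). The second Rrn3 match begins at position -48 (chr16:13780639-13780668, plus strand), and the other at -215. The Tsr1 match lies 24 bases after the start (chr11:74898092-74898121, plus strand). Of the genes that were not called at 4 against 2 weeks, 8 of 25 held the letters.

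In the main fit, calls among these genes lay only between the weeks, which drew on more libraries than any comparison of genotypes. Single differences between genotypes were as large without a call, down to -0.58 in Il1b KO against VF at 4 weeks. At 4 weeks, 15 of the 46 were called in the mean of the VF, Il1b KO and Il1r1 KO groups against the same genotypes at 2 weeks, and all 15 were higher. Over all genes 14.4% were called, and 8.53% were called higher. Of the 46, 42 were higher, with a median log2 difference of 0.19, against 45.7% of all genes and a median of -0.033. At an unadjusted p under 0.05, 26 were higher and none lower, where 28.9% of all genes passed in either direction. The differences were small, from 0.23 to 0.55 on the log2 scale among the 15. In bulk RNA, more cells of a kind and more RNA per cell cannot be told apart.

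**Figure D2:**
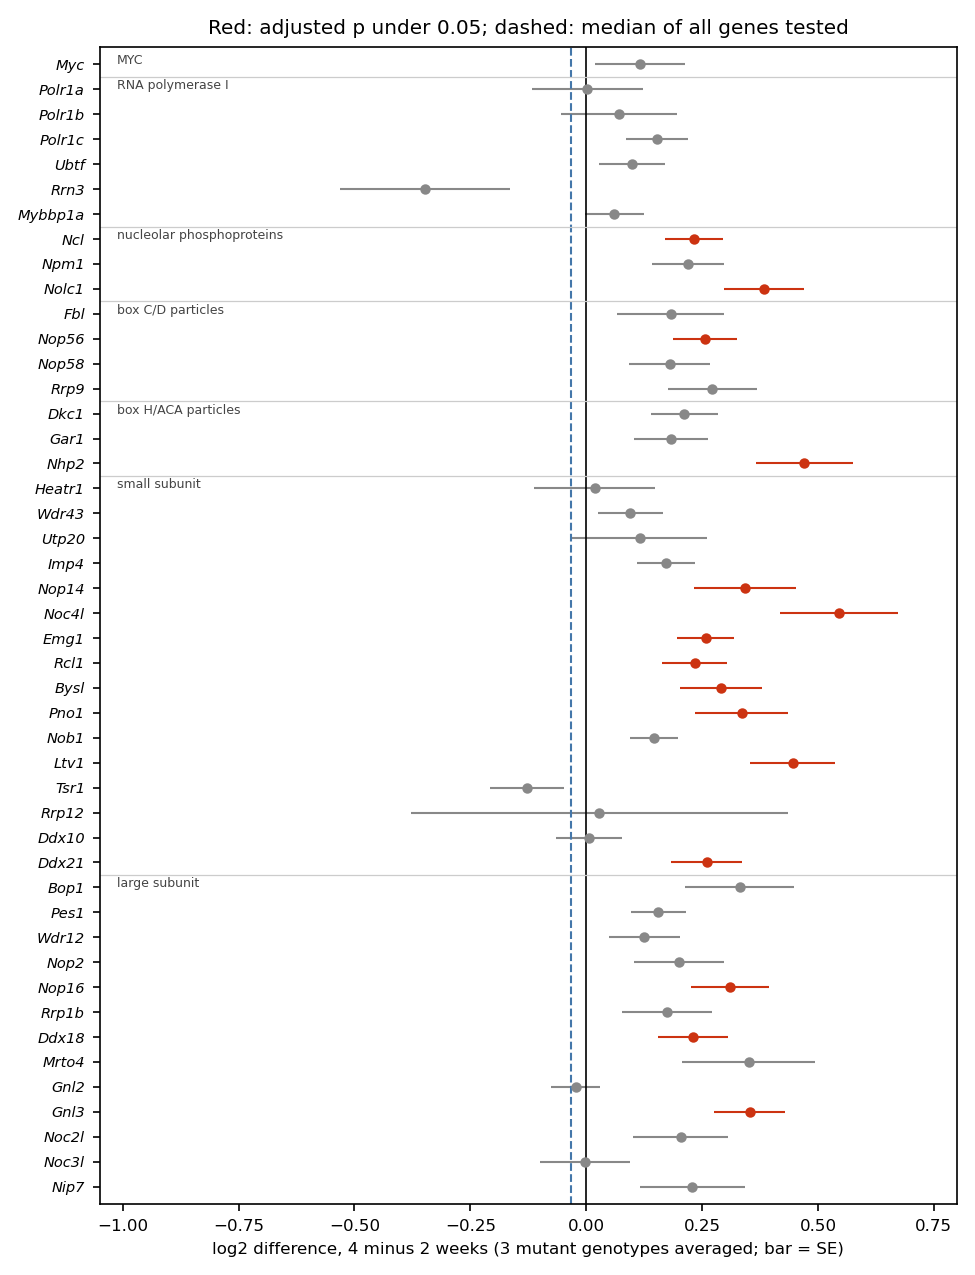
Log2 difference between 4 and 2 weeks for each of the 46 genes by role, averaged over the 3 mutant genotypes, with the standard error as a bar. The 15 called genes (red) lie between 0.23 and 0.55, to the right of the median of all genes (dashed), and Rrn3 lies farthest left at -0.35.

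Called genes came from every role apart from MYC itself and RNA polymerase I. They were 2 of 3 nucleolar phosphoproteins, 1 of 4 box C/D proteins, 1 of 3 H/ACA proteins, 8 of 16 small subunit factors and 3 of 13 large subunit factors. Whether the roles differed was not tested.

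Myc (chr15:61985391-61990374, plus strand, mm10) itself did not pass. It ran from 254 to 623 CPM (median 505) in the 12 mutant libraries of 2 weeks and from 430.1 to 598 CPM (median 547) in the 9 of 4 weeks. The groups overlapped throughout, and no library of 4 weeks exceeded the highest of 2 weeks. Its difference was 0.12 on the log2 scale (SE 0.0972, adjusted p = 0.466), and it ranged from 0.059 without Il1r1 KO at 2 weeks number 3 to 0.21 with limma voom, with no call under any of 29 alternatives. None of the 6 RNA polymerase I genes was called, with a median difference of 0.066. Polr1c, a subunit shared with RNA polymerase III, had the lowest p of these at 0.15 on the log2 scale (SE 0.0662, adjusted p = 0.126). Rrn3 was lower at -0.35 on the log2 scale (SE 0.184, adjusted p = 0.218) and at -0.20 without Il1b KO at 4 weeks number 5, its lowest library. Polr1e, another subunit of the polymerase from a further list, was called at 0.30 (adjusted p = 0.00838). The subunits Polr1d, Twistnb, Cd3eap and Znrd1 of the same list were not called.

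Both called phosphoproteins bind the modification particles or the RNA precursor. Nolc1, a chaperone of small nucleolar particles, ran from 157 to 218 CPM (median 179.7) at 2 weeks and from 195 to 265 CPM (median 249.9) at 4 weeks. In 7 of the 9 libraries of 4 weeks it exceeded every mutant library of 2 weeks. Nolc1 rose by 0.38 on the log2 scale (SE 0.0864, adjusted p = 0.00646). Ncl lay at 911 to 1364 CPM (median 1113) and then at 1191 to 1541 CPM (median 1366), with 5 of 9 above all 12. The rise of Ncl was 0.23 on the log2 scale (SE 0.0624, adjusted p = 0.0169). Npm1, the third of the group, differed by 0.22 on the log2 scale (SE 0.0779, adjusted p = 0.0611) and was not called.

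Among particle proteins, Nhp2 (chr11:51619735-51623714) had one of the largest differences. It ran from 90.0 to 148 CPM (median 127) at 2 weeks and from 116 to 255 CPM (median 174) at 4 weeks, and 7 of the 9 late libraries exceeded all 12 early ones. The exceptions were Il1b KO number 5 and Il1r1 KO number 7. Nhp2 rose by 0.47 on the log2 scale (SE 0.104, adjusted p = 0.00586). The other H/ACA genes, Dkc1 (the pseudouridine synthase) and Gar1, differed by 0.21 (SE 0.0721, adjusted p = 0.0518) and 0.18 (SE 0.0804, adjusted p = 0.133), so Dkc1 stood just outside the threshold. Nop56 of the box C/D core ran from 326 to 417 CPM (median 373) and then from 365 to 510.1 CPM (median 459), with 8 of 9 above all 12, and rose by 0.26 on the log2 scale (SE 0.0692, adjusted p = 0.0176). Without the 3 libraries that stand apart Nop56 was not called (adjusted p = 0.0913). Rrp9, the protein specific to the U3 particle, Nop58 and Fbl differed by 0.27, 0.18 and 0.18 and did not pass.

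The small subunit held 8 of the 15. Ltv1 (chr10:13178140-13193168), which acts in nuclear export and late maturation of the small subunit, had the lowest p of the 46. In the VF group it was 94.7, 85.2, 93.1 and 98.2 CPM at 2 weeks and 129, 139 and 124 CPM at 4 weeks. In Il1b KO it was 101, 71.0, 96.4 and 83.5 CPM and then 145, 113 and 99.0 CPM. In Il1r1 KO it was 94.7, 77.9, 100.1 and 115 CPM and then 157, 109 and 118 CPM. All 3 VF libraries of 4 weeks lay above every VF library of 2 weeks, while the knockout groups each overlapped between the weeks. The share of all genes without overlap within VF was not counted. Ltv1 rose by 0.45 on the log2 scale (SE 0.0914, adjusted p = 0.00361), a fold of 1.36.

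Noc4l (chr5:110648418-110653417), which works with Nop14 in the early small subunit particle, had the largest difference, 0.55 on the log2 scale (SE 0.127, adjusted p = 0.00742). It ran from 58.2 to 96.4 CPM (median 68.8) and then from 61.2 to 175 CPM (median 103), with 5 of 9 above all 12. Its highest value was in Il1b KO at 4 weeks number 5, and without the 3 libraries that stand apart the difference was 0.30 (adjusted p = 0.0411), still called. Nop14 was highest in the same library at 165 CPM, and the other 8 late libraries lay at or below 103 CPM, where the highest early library was 95.8 CPM. Nop14 rose by 0.34 on the log2 scale (SE 0.11, adjusted p = 0.0391), but without that library the difference was 0.22 (adjusted p = 0.0899).

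Emg1, a methyltransferase acting on 18S ribosomal RNA, ran from 162 to 197 CPM (median 177) and then from 188 to 300.2 CPM (median 204). It was above all 12 early libraries in 6 of 9 and rose by 0.26 on the log2 scale (SE 0.0620, adjusted p = 0.00906). Without the 3 libraries that stand apart the rise of Emg1 was 0.16 (adjusted p = 0.0346). Emg1 shares 334 exon bases with Lpcat3 on the other strand, and Bysl 361 with Ccnd3, a cyclin; the libraries were unstranded, so reads there cannot be assigned to one of the pair. Bysl (bystin, carried by the particle from nucleolus to cytoplasm) lay at 82.7 to 116 CPM (median 102) and then at 84.9 to 159.5 CPM (median 119.5) and rose by 0.29 on the log2 scale (SE 0.0879, adjusted p = 0.0297). Pno1, which docks the nuclease Nob1, lay at 44.7 to 72.3 CPM (median 59.0) and then at 48.9 to 96.8 CPM (median 79.2) and rose by 0.34 on the log2 scale (SE 0.101, adjusted p = 0.029). Both were lowest among late libraries in Il1b KO number 5, and each overlapped the early range.

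Rcl1, a factor of the early particle, ran from 77.7 to 123 CPM (median 107) and then from 106 to 148 CPM (median 131) and rose by 0.23 on the log2 scale (SE 0.0700, adjusted p = 0.0286). Ddx21, a nucleolar helicase, lay at 119.9 to 171 CPM (median 137) and then at 132 to 194 CPM (median 165) and rose by 0.26 on the log2 scale (SE 0.0763, adjusted p = 0.0262). In each, 5 and 4 late libraries respectively exceeded all early ones. The remaining 8 factors did not pass. Nob1 and Imp4 came nearest at 0.15 (adjusted p = 0.0635) and 0.17 (adjusted p = 0.0681). Tsr1, which checks late particles, was the one factor of this role below zero, at -0.13 on the log2 scale (SE 0.0789, adjusted p = 0.3), and 1240 of its exon bases are shared with Srr on the other strand.

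Of the large subunit factors, Gnl3 (chr14:31012433-31019152; nucleostemin, a GTP-binding protein known from stem and progenitor cells) had the lowest p. In VF it was 240.3, 213, 216 and 217 CPM at 2 weeks and 263, 279.5 and 261 CPM at 4 weeks. In Il1b KO it was 208, 179, 195 and 178 CPM and then 324, 245 and 243 CPM, and in Il1r1 KO 219.6, 177, 238 and 256 CPM and then 314, 244 and 251 CPM. The weeks did not overlap in VF or Il1b KO and did in Il1r1 KO, and the share of all genes without overlap within a genotype was not counted. Gnl3 rose by 0.35 on the log2 scale (SE 0.0756, adjusted p = 0.00477). Nop16 lay at 91.5 to 121 CPM (median 109.6) and then at 105 to 180.3 CPM (median 124) and rose by 0.31 on the log2 scale (SE 0.0839, adjusted p = 0.0176). Its call was lost without Il1r1 KO at 4 weeks number 5 (adjusted p = 0.0522). Without the 3 libraries that stand apart Nop16 differed by 0.15 (adjusted p = 0.155) and was not called. Ddx18, a helicase, lay at 48.9 to 71.2 CPM (median 58.1) and then at 54.8 to 88.9 CPM (median 66.6) and rose by 0.23 on the log2 scale (SE 0.0751, adjusted p = 0.0416).

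The PeBoW complex, which holds Pes1, Bop1 and Wdr12 and is needed for 28S maturation, was higher without a call. Bop1 differed by 0.33 (SE 0.117, adjusted p = 0.0606), Pes1 by 0.16 (SE 0.0594, adjusted p = 0.083) and Wdr12 by 0.13 (SE 0.0774, adjusted p = 0.298). Gnl2, a relative of Gnl3, and Noc3l had differences near 0, at -0.022 and -0.00251.

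**Figure D3:**
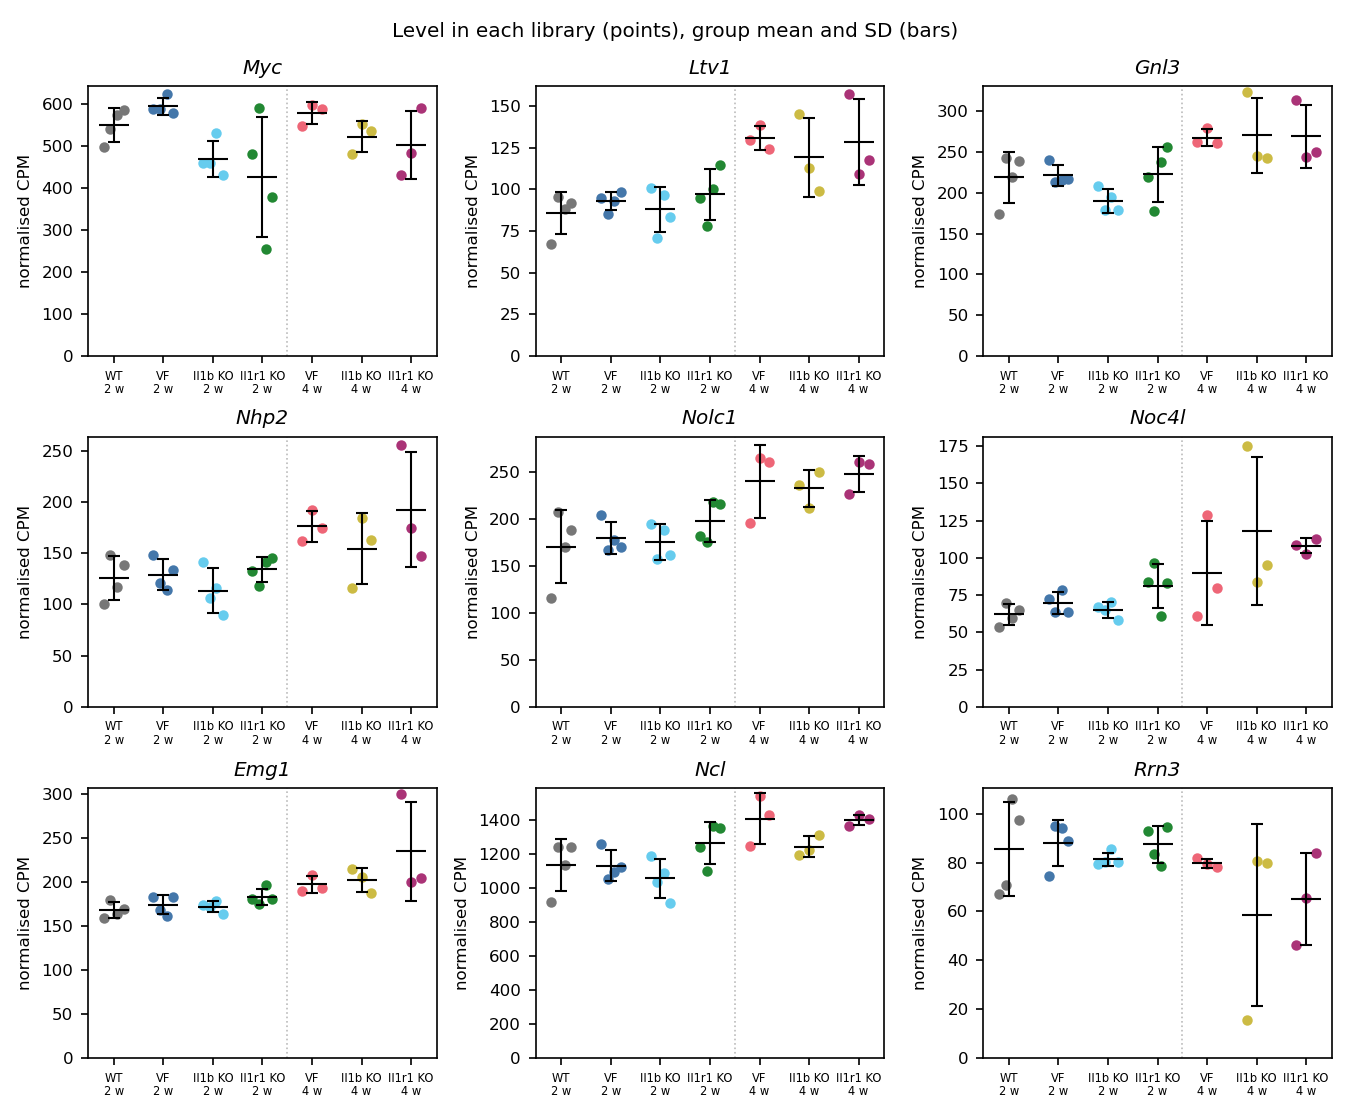
Level in each library (points) in normalised CPM, with the group mean and SD (bars), for Myc, 7 genes that rose between the weeks and Rrn3. Groups right of the dotted line are of 4 weeks; Ltv1 reaches 157 CPM there against 115 CPM at most in mutant libraries of 2 weeks.

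The weeks overlapped in every gene: in none of the 46 were all 9 late libraries above all 12 early ones, which held for 0.337% of all genes. Ltv1, Gnl3, Nhp2, Nolc1, Noc4l, Emg1 and Ncl were called under all 29 alternatives, and Nop56 under all 21 that left out 1 library. Calls turned on single libraries in the other 7. Ddx21 was lost without VF number 6, Il1b KO number 6 or Il1r1 KO number 6 of 4 weeks (adjusted p 0.0504 to 0.0560), and Rcl1 without 4 libraries (0.0507 to 0.0611; VF 4 of 2 weeks, and VF 6, Il1b KO 7 and Il1r1 KO 5 of 4 weeks). Pno1 was lost without 6 (0.0510 to 0.0615; VF 2 and 4 and Il1b KO 2 and 4 of 2 weeks, and VF 6 and Il1r1 KO 5 of 4 weeks), as was Bysl (0.0517 to 0.0862; VF 3 and Il1b KO 2 and 4 of 2 weeks, and VF 6, Il1b KO 6 and Il1b KO 7 of 4 weeks). Nop14 was lost without 11 of the 21 (0.0503 to 0.0899) and kept without VF 1 and 4, Il1b KO 1 and 3 and Il1r1 KO 3 of 2 weeks and VF 5, Il1b KO 6 and 7 and Il1r1 KO 6 and 7 of 4 weeks. Ddx18 was lost without 13 (0.0508 to 0.0967) and kept without VF 1, Il1b KO 1 and Il1r1 KO 2 of 2 weeks and VF 5, Il1b KO 6 and 7 and Il1r1 KO 6 and 7 of 4 weeks. Without the 3 libraries that stand apart Ddx18 differed by 0.13 (adjusted p = 0.258), Nop14 by 0.20 (adjusted p = 0.194) and Pno1 by 0.34 (adjusted p = 0.0554), and none of these was called. Nop16 (adjusted p = 0.155) and Nop56 (adjusted p = 0.0913) lost their calls there as well. Upper-quartile factors left Ddx18, Nop14 and Rcl1 without a call (adjusted p 0.0573 to 0.0669), and fitting the mutant groups without WT did the same for Nop14 (adjusted p = 0.0506) and Ddx18 (adjusted p = 0.0612). With limma voom Nop14 differed by 0.20 (adjusted p = 0.117). The count of called genes was 9 without VF at 4 weeks number 6, where 1330 of all genes were called in place of 1956, and 12 without the 3 libraries that stand apart, where 1358 were. These 12 were not all among the genes called in the main fit.

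Within single genotypes no gene of the 46 was called between the weeks. The shares of all genes called were 0.022% in VF, 0.748% in Il1b KO and 2.46% in Il1r1 KO. At an unadjusted p under 0.05, 8, 14 and 15 of the 46 were higher in these genotypes and none lower, where 8.48%, 19.1% and 19.3% of all genes passed in either direction. The median difference was 0.14 in VF (38 of 46 higher), 0.22 in Il1b KO (39 of 46) and 0.21 in Il1r1 KO (40 of 46). Whether a knockout altered the difference between the weeks was tested gene by gene. None of the 46 was called for Il1b KO (0.0147% of all genes) or for Il1r1 KO (0% of all genes). At an unadjusted p under 0.05 there was 1 for Il1b KO (Imp4, -0.37; 8.28% of all genes) and none for Il1r1 KO (5.32% of all genes).

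Other gene lists were followed between the same libraries, where 14.4% of all genes were called. Of 33 other MYC targets, 31 were higher at 4 weeks and 21 were called, all higher, with a median of 0.27. Those with the lowest p were the nucleoside diphosphate kinase Nme2 (0.50), the repair nuclease Apex1 (0.35), the nuclear transport GTPase Ran (0.49) and Nme1 (0.45). Of 93 other ribosome assembly factors, 70 were higher and 16 were called, all higher, with a median of 0.12. The 17.2% called stood near the 14.4% of all genes, of which 8.53% were called higher. At an unadjusted p under 0.05, 29.0% of these 93 passed, against 28.9% of all genes. Eif6, which keeps the large subunit from joining early (0.41), Ruvbl2 (0.38), Brix1 (0.31) and Ddx56 (0.29) had the lowest p of these. Of 15 genes of the MYC network (partners, antagonists and ligases), 5 were higher and only Mxd3, a MAX partner that represses, was called, at 0.30; their median was -0.10.

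Cell cycle genes moved further. All 20 on the list were higher at 4 weeks and 14 were called, with a median of 0.50. They included Pcna, the replication clamp (0.49), Cdk1, the mitotic kinase (0.72), Mcm7 of the replicative helicase (0.44) and Aurkb (0.67). The summed level of the list was 2513 to 3920 CPM in the 12 mutant libraries of 2 weeks and 2689 to 6179 CPM in the 9 of 4 weeks. The summed level of the 46 genes was 6564 to 8423 CPM and 7901 to 9621 CPM. Stem cell markers went the other way: 11 of 12 were lower, and Mecom (-0.80), Fgd5 (-1.14), Meis1 (-0.23) and Kit (-0.29) were called. Their sum did not overlap between the weeks, at 3096 to 3921 CPM and then 2200 to 3022 CPM. Among all genes, 18 had every library of 4 weeks below every mutant library of 2 weeks. How often sums of lists of like size do so was not counted.

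Among markers of other cells, 22.2% of the erythroid and 14.3% of the megakaryocyte genes were called between the weeks, against 14.4% of all genes. The shares with an unadjusted p under 0.05 were 66.7% and 57.1%, all higher, against 28.9% of all genes. For neutrophil and monocyte genes this share was 33.3%, all lower. The part of these markers in the result was not tested. Of 9 erythroid markers 7 were higher and 2 called (Hbb-bs at 1.43 and Hba-a2 at 2.59), with summed levels of 84.0 to 261 CPM and then 114 to 695 CPM. Of 7 megakaryocyte markers 5 were higher and Pf4 was called at 1.69 (sums of 324 to 1239 CPM and 341 to 2371 CPM). Of 12 neutrophil and monocyte markers 10 were lower and none called (579 to 869 CPM and 428 to 760 CPM). Nkg7, the 1 measured marker of T and NK cells, was called at 1.23 (18.4 to 49.8 CPM and 18.8 to 119 CPM). The 3 B lineage genes measured summed to 20.9 to 40.1 CPM and 32.1 to 58.1 CPM, and Lepr, the 1 stromal gene, reached 15.0 CPM at most.

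For each library the median over the 46 genes of log2 CPM minus the gene's mean was taken as its level. In the mutant libraries it ran from -0.27 to 0.084 at 2 weeks and from 0.018 to 0.24 at 4 weeks. By group the mean was -0.044 ± 0.057 (SD, n = 4) in VF, -0.13 ± 0.13 (SD, n = 4) in Il1b KO and -0.013 ± 0.065 (SD, n = 4) in Il1r1 KO at 2 weeks. At 4 weeks it was 0.12 ± 0.11 (SD, n = 3), 0.068 ± 0.044 (SD, n = 3) and 0.18 ± 0.024 (SD, n = 3). WT stood at -0.081 ± 0.14 (SD, n = 4), with WT number 1 lowest of all libraries at -0.28. That library was also the lowest for cell cycle genes, at -1.06, and the highest for stem cell markers, at 0.57. Il1r1 KO at 4 weeks was the group with the highest cell cycle level, 0.75 ± 0.25 (SD, n = 3).

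**Figure D4:**
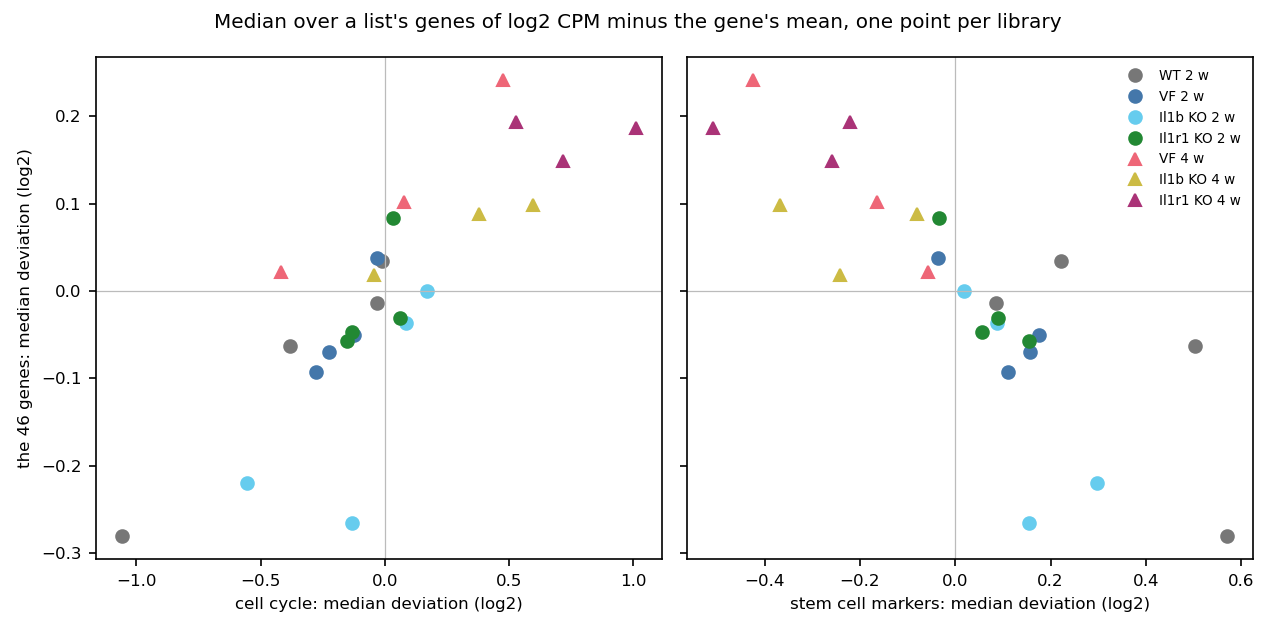
Level of the 46 genes in each library (vertical axis, median log2 deviation) against the same for cell cycle genes (left) and stem cell markers (right), with 2 weeks as circles and 4 weeks as triangles. Late libraries lie at 0.018 to 0.24 on the vertical axis, and WT number 1 is at the bottom of both panels at -0.28.

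The effect of the mutant JAK2 construct was read at 2 weeks, where WT libraries exist. None of the 46 was called in VF against WT (0.00734% of all genes), and none had an unadjusted p under 0.05 (2.27% of all genes). The median difference was 0.035, and 29 of 46 were higher (50.5% of all genes). Myc was 496, 539, 573 and 585 CPM in WT and 586, 588, 623 and 579 CPM in VF. The groups overlapped, and the difference was 0.12 (SE 0.156, adjusted p = 1). Bop1 had the lowest p, at 0.39 (SE 0.189, adjusted p = 1), with 50.2, 85.9, 62.7 and 70.3 CPM in WT and 96.6, 88.3, 83.0 and 84.2 CPM in VF. Polr1a had the next lowest p among the higher at 0.27. In the other direction Imp4 and Tsr1 had the lowest p, at -0.12 and -0.12.

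Loss of Il1b in the mutant background was compared with VF at each time. At 2 weeks no gene of the 46 was called (0.00734% of all genes), 6 of 46 were higher (50.1% of all genes) and the median was -0.079. Library levels of the 46 overlapped, at -0.27 to -0.00062 in Il1b KO and -0.093 to 0.038 in VF. Myc was the 1 gene with an unadjusted p under 0.05 (1.36% of all genes). It was 458, 458, 529.6 and 430.4 CPM in Il1b KO, below each VF library, and the difference was -0.34 (SE 0.156, adjusted p = 1). How many of all genes were without overlap between these groups was not counted. Wdr43, a protein of the early small subunit particle, had the next lowest p among the lower at -0.22 (SE 0.113), and Noc3l and Heatr1 among the higher at 0.094 and 0.094.

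At 4 weeks the 46 divided evenly, with 23 higher, a median of -0.00235 and no call (0.125% of all genes). At an unadjusted p under 0.05, 3 were lower and none higher (14.7% of all genes): Imp4, Pno1 and Wdr43. Imp4, which joins the U3 particle to the precursor, was 154, 174 and 169 CPM in VF and 115, 143 and 129 CPM in Il1b KO, a difference of -0.36 (SE 0.116, adjusted p = 0.167). Pno1 was 84.4, 93.1 and 79.2 CPM in VF and 48.9, 61.6 and 61.1 CPM in Il1b KO, at -0.58 (SE 0.188, adjusted p = 0.17). Noc4l and Nop14 had the lowest p among the higher, at 0.39 and 0.35, and without Il1b KO number 5 they were -0.00647 and -0.00966. Over both times none was called (0.139% of all genes), the median was -0.046 and 30 of 46 were lower. Wdr43, Pno1 and Imp4 were again those with an unadjusted p under 0.05 (9.38% of all genes), and Myc stood at -0.24 (SE 0.119, adjusted p = 0.539). Among the higher, Rrp1b and Ubtf had the lowest p, at 0.15 and 0.087.

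Loss of Il1r1 was set against the same VF libraries, so the 2 knockout comparisons share their controls. At 2 weeks none of the 46 was called (0.0514% of all genes), and 33 were higher with a median of 0.044. Myc was the 1 gene with an unadjusted p under 0.05 (3.15% of all genes). It was 481, 588, 254 and 379 CPM in Il1r1 KO, where number 2 lay within the VF range and the other 3 lay below it. The difference was -0.48 (SE 0.156, adjusted p = 1). Without number 3, the lowest, it was -0.30, and limma voom, which gives libraries unequal weight, called it at -0.68 (adjusted p = 0.0225), while DESeq2 did not (adjusted p = 0.571). Polr1a had the next lowest p among the lower at -0.36, and Ncl and Fbl among the higher at 0.16 and 0.25.

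At 4 weeks none was called (0.147% of all genes), 29 were higher and the median was 0.051. Myc was 430.1, 483 and 588 CPM in Il1r1 KO against 547, 598 and 586 CPM in VF, overlapping, at -0.20 (SE 0.18, adjusted p = 0.698). At an unadjusted p under 0.05, 5 were higher and none lower (12.7% of all genes): Npm1, Polr1c, Rrp1b, Emg1 and Bysl. Npm1 was 411, 524 and 486 CPM in VF and 758, 558 and 491 CPM in Il1r1 KO, at 0.35 (SE 0.145, adjusted p = 0.324), with its highest value in number 5. Polr1c stood at 0.28, and Ddx10 and Gnl2 were the lowest in p among the lower, at -0.23 and -0.16. Without the 3 libraries that stand apart 1 gene, Bysl, was called (adjusted p = 0.0388). Over both times none was called (0.169% of all genes). Myc had the lowest p at -0.34 (SE 0.119, adjusted p = 0.288), with Rrp1b (0.28), Npm1 (0.22) and Emg1 higher at an unadjusted p under 0.05 (11.4% of all genes). Gnl2 had the second lowest p among the lower at -0.10.

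Set against each other over both times, Il1r1 KO exceeded Il1b KO in 36 of 46 genes (53.7% of all genes), with a median of 0.11 and no call (0.176% of all genes). At an unadjusted p under 0.05, 10 were higher and none lower (14.1% of all genes). Pno1 had the lowest p, at 0.43 (SE 0.124, adjusted p = 0.204), and Dkc1 followed at 0.26 (SE 0.0886, adjusted p = 0.219). Ncl, Imp4, Bysl, Mrto4, Npm1, Pes1, Wdr43 and Nhp2 were the other 8, between 0.17 and 0.48. Noc3l had the lowest p among the lower at -0.19. Myc differed by -0.10 (SE 0.119, adjusted p = 0.75).

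**Figure D5:**
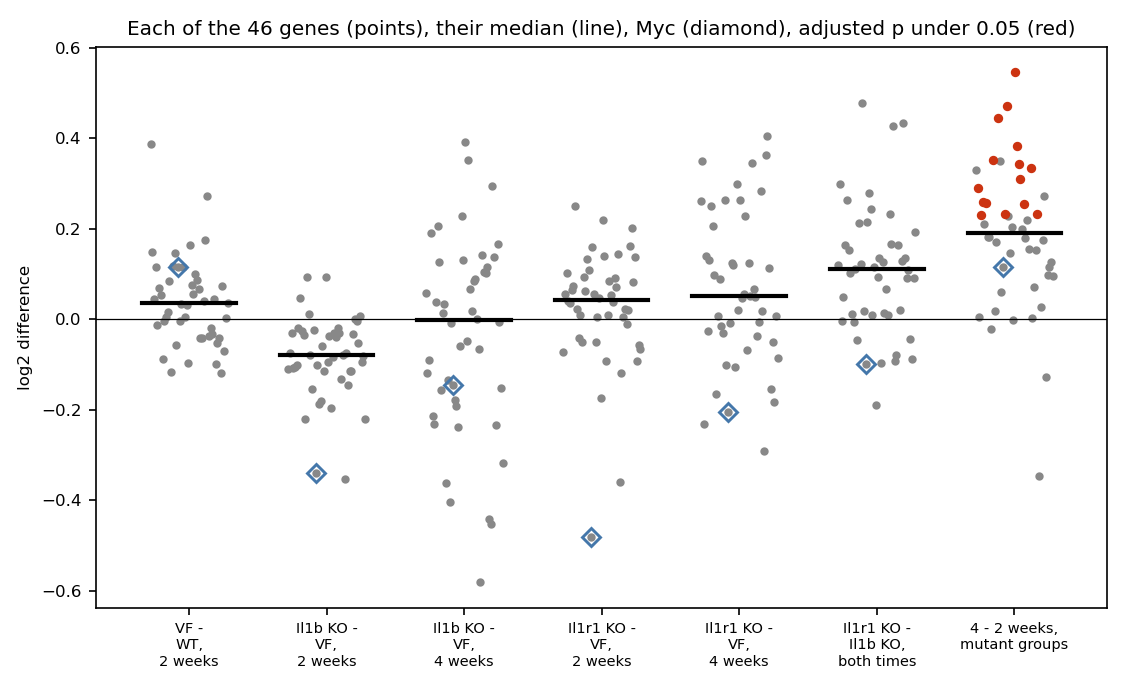
Log2 difference of each of the 46 genes (points) in 6 genotype comparisons and between the weeks, with their median (line) and Myc (diamond). Red points passed the adjusted threshold, and all 15 lie in the comparison of weeks, where the median is 0.19; the Il1b KO and Il1r1 KO comparisons share the VF libraries.

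Some of the 46 lie near the knocked-out genes, where donor chromosome segments can travel with an allele. Polr1b and Nop56 lie 0.238 and 0.903 Mb from Il1b on chromosome 2, and differed between Il1b KO and VF by 0.0154 (SE 0.153) and 0.0228 (SE 0.0850) over both times. Imp4 lies 5.78 Mb from Il1r1 on chromosome 1 and differed between Il1r1 KO and VF by 0.0393 (SE 0.0766). The 46 genes sat on 18 chromosomes in all. In the annotation 23 of the 46 share exon bases with another gene, 17 of them with a protein-coding one, and 8 of the 15 that rose are among the 23.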

How the data were processed

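Per the labels' protocols, sorted cells were lysed in PicoPure buffer, and SMART-Seq v4 libraries, which keep no strand, were made from polyA RNA. The authors deposited gene-level read counts. The submitters' processing notes name STAR 2.7.10a, featureCounts (version not given in the sources used here), FastQC 0.11.5, the build mm10 and R 4.2.2. Symbols and positions came from GENCODE vM21 for 13623 of 13641 genes, and the 4 construct sequences were left out.

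The deposited counts of 7 groups went into 1 robust quasi-likelihood fit (edgeR 4.0.16 in R 4.3.3) after filterByExpr and TMM scaling. Benjamini-Hochberg adjustment was over 13630 genes. The fit was also run on simulated counts, with the same dispersion for every gene and changes larger than those of the called genes of this set. That run does not cover differences as small as these. Differences over both times, and between weeks, are means of the differences within time or genotype. SD is over libraries. Separate mice are implied but not stated for each library, so p-values measure the spread between libraries. RPKM used summed exon lengths.

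The 46 genes and the further lists were chosen with earlier results of these data known. Named were Myc, every called gene, the 2 lowest p per direction and comparison, the extremes of level per role, and up to 4 called genes per further list. Outside this rule, other genes were named to complete a role or complex or at an unadjusted p under 0.05. Polr1e, Polr1d, Twistnb, Cd3eap and Znrd1 were named as further polymerase subunits. Alternatives changed the scaling (upper-quartile, RLE), the tool (limma 3.58.1 voom with quality weights, DESeq2 1.42.0), the filter (none, or CPM 5 in 3 libraries), the groups fitted (those compared only), a replicate block, or the libraries (each left out, and sets of doubted ones). Comparisons of weeks within 1 genotype were added after the data were seen.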

Additional observations from a re-analysis of the deposited data

Results flagged for a closer look

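Within groups of 4 libraries, a library was looked for whose gap to the next was large against the range of the group. Among 132 groups, of 33 genes and levels in 4 groups each, 2 were found, where chance gives about 1 in 20. Both lay in VF at 2 weeks number 1. Dkc1 was 344, 281, 277 and 275 CPM in that group, with number 1 at 343.7 CPM. Gnl3 was 240.3, 213, 216 and 217 CPM, with number 1 at 240.3 CPM. Each value lay below the highest library of 4 weeks, and Gnl3 was called between the weeks without number 1 as well.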

How the results depend on the processing

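Between the weeks the 46 genes held 12 calls (upper-quartile factors) to 20 (DESeq2) under other scalings, filters and tools, all higher, apart from 24 with limma voom. Leaving out 1 library gave 9 to 19, and within VF, Il1b KO and Il1r1 KO alone there were 0, 0 and 0. Upper-quartile factors moved the share of all calls that were higher from 59.5% to 49.6%. No scaling moved the median of all genes by more than 0.035 on the log2 scale. The count without a call became 1 with limma voom in Il1r1 KO against VF at 2 weeks and 1 over both times (Myc in both), and 1 at 4 weeks without the 3 libraries that stand apart (Bysl). In Il1b KO against VF at 4 weeks Nop14 turned from 0.35 to -0.016 with limma voom and to -0.013 without these 3, and ran from -0.00966 to 0.59 with 1 library left out; Noc4l ran from -0.00647 to 0.74. The cause was not tested. The median Il1b KO effect at 4 minus 2 weeks was 0.042, and 0.14 without the 3 libraries. Replicate numbers did not pair the libraries (median correlation of deviations between the same numbers -0.021 at 2 weeks and 0.014 at 4 weeks). With the replicate number as a block, 0 of the 46 were called in VF against WT, with a median of 0.042, and 0 in the knockout comparisons. No such fit was possible between the weeks, where numbers differ. Of the counts and medians of the 46, 443 stayed near the main value and 9 moved. Near meant within a set factor for a count and within 0.095 on the log2 scale for a median. For single genes and counts over all genes together, 1314 kept their direction and side of the threshold, or stayed within that factor. Of the single genes 55 lost a call, 2 gained one and 4 reversed. Of the counts over all genes 81 moved. With 3 or 4 libraries a group, small differences can pass unseen.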
